A study of Homo sapiens with 12 samples.

Results

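The EGFR family genes examined here are 10 genes of the deposited table, chosen by symbol: the receptors *EGFR*, *ERBB2* and *ERBB3*, the ligands *EREG*, *TGFA*, *HBEGF*, *BTC*, *NRG1* and *AREG*, and the receptor inhibitor *ERRFI1*. They are 10 of 23346 genes in the table, and all 10 were among the 16236 genes that reached a mean of 0.1 RPKM over the samples and were fitted. RPKM is the number of reads on a gene scaled by its length in kilobases and by the size of the library. *AREG* reached that mean only through CFPAC-1, the line in which it was higher.

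SW1990 and CFPAC-1 are established lines of human pancreatic adenocarcinoma, both grown as monolayers. Each line was sorted by flow cytometry on GCTM-5, an antibody to a glycoprotein antigen of the cell surface, into cells with strong staining (positive) and cells without staining (negative), and poly(A) RNA was sequenced. There were 4 groups of 3 samples from triplicate sorts, 12 samples in all: SW1990 negative, SW1990 positive, CFPAC-1 negative and CFPAC-1 positive. Each line stands for 1 tumour, and no group received a ligand or an inhibitor according to the labels. Nothing in the sources used here says whether the sorts were made from separate cultures, so that p-values measure the spread between sorts, which may be technical. Library totals recovered from the RPKM values were 9969697 to 26159330 reads, the lowest in positive CFPAC-1 replicate 3. Of each total, 99.928% to 99.958% lay on genes of the table, so that the number of reads sequenced is not known from it.

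The EGFR family consists of receptor tyrosine kinases that pair up when a ligand binds and then signal through the ERK and PI3K-AKT cascades. TGF-alpha, amphiregulin, epiregulin, betacellulin and HB-EGF are made as membrane precursors and are released by proteolysis to bind EGFR, and betacellulin, HB-EGF and epiregulin can also bind ERBB4. Neuregulin 1 binds ERBB3 and ERBB4, ERBB2 has no known soluble ligand and serves as a partner, and ERBB3 has little kinase activity of its own. In pancreatic carcinoma, EGFR and its ligands have long been known to be expressed.

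Among the receptors, *ERBB3* differed most between sorted cells, and it did so in opposite directions in the 2 lines. It rose 5.67-fold with GCTM-5 in SW1990 and fell 2.11-fold in CFPAC-1, whereas *EGFR* and *ERBB2* differed by less than 2-fold in both. Among the ligands, *EREG* rose in both lines, *HBEGF* rose in SW1990, and *BTC*, *NRG1* and *AREG* rose in CFPAC-1. *ERRFI1* rose in SW1990. A gene was called where positive and negative cells differed over 2-fold at an unadjusted p under 0.01 (limma, on log2 of RPKM plus 0.1), the thresholds of the study, and fold changes are on that scale throughout. In SW1990, 4 of 10 members were called higher and 0 lower, against 4.59% of all genes fitted called higher and 7.48% called lower. At an unadjusted p under 0.05, 1 member (*NRG1*) was lower there. CFPAC-1 had 4 of 10 called higher and 1 lower, against 5.65% and 4.13% of all genes. The 10 genes were chosen with earlier results of these data known. Shares and medians over all genes, here and below, therefore give a scale and are not a test of the list. With each sample centred on its median, the share of called genes in CFPAC-1 that were higher was 45.8% in place of 57.7%. The median log2 fold change of the members was 0.71 in SW1990, where it was -0.04 over all genes fitted, and 0.39 in CFPAC-1, where it was 0.05. At an adjusted p under 0.05 without a fold threshold, 7 of 10 members passed in SW1990 and 8 of 10 in CFPAC-1, against 28.2% and 36.5% of all genes. Between the lines that rule took in 68.9% of all genes in negative and 62.3% in positive cells. An unadjusted p under 0.05 is looser, so that at least 28.2% and 36.5% of all genes passed it within the lines. Counts under it, here and below, have no exact share beside them and are not read as results about a list. Without *AREG*, whose SW1990 samples held 0 to 3 reads, the medians over 9 members were 0.82 and 0.29.

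*EGFR*, the receptor of most of these ligands, lies at chr7:55086710-55279321 (GRCh37, plus strand). Its level was 21.4, 21.9 and 18.8 RPKM in the SW1990 negative samples and 27.3, 27.2 and 24.8 RPKM in the positive ones. In CFPAC-1 it was 22.8, 25.2 and 28.0 RPKM in the negative samples and 30.7, 30.7 and 31.0 RPKM in positive cells. Every positive sample was thus above every negative sample of its line, by a small margin. The log2 difference was 0.35 in SW1990 (95% confidence interval 0.15 to 0.56, adjusted p = 0.0137, limma with Benjamini-Hochberg adjustment over all genes) and 0.29 in CFPAC-1 (0.08 to 0.49, adjusted p = 0.0307, limma), both under the 2-fold threshold. Over the alternative limma fits, the adjusted p ran from 0.0111 to 0.0628 in SW1990 and from 0.0215 to 0.185 in CFPAC-1. With quantile normalization the CFPAC-1 difference was 0.19. In order of level, SW1990 negative came first at 20.7 ± 1.70 RPKM (SD, n = 3), followed by CFPAC-1 negative at 25.3 ± 2.59, SW1990 positive at 26.4 ± 1.38 and CFPAC-1 positive at 30.8 ± 0.193, and only the middle pair of groups overlapped. The antisense gene EGFR-AS1 lies within *EGFR*. The sources used here do not state whether the counting used strand, so that reads of the 2 genes may not be separated.

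*ERBB2*, the partner without a ligand, lies at chr17:37844167-37886679 (plus strand), where *MIEN1* and *PGAP3* overlap it on the other strand. In SW1990 it was at 19.1, 17.5 and 18.2 RPKM in the negative samples and 21.8, 23.2 and 22.9 RPKM in positive cells. CFPAC-1 had more of it in both populations, with 46.7, 53.0 and 54.7 RPKM in the negative samples and 37.3, 40.5 and 39.0 RPKM in positive cells. Samples did not overlap in either line, but positive cells were the higher in SW1990 and the lower in CFPAC-1. The log2 differences were 0.31 (adjusted p = 0.0132, limma) and -0.40 (adjusted p = 0.00275), neither of which reached 2-fold. The change in SW1990 exceeded that in CFPAC-1 by 0.71 on the log2 scale (95% confidence interval 0.46 to 0.96, adjusted p = 0.000874, limma interaction).

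*ERBB3*, the neuregulin receptor with little kinase activity of its own, lies at chr12:56470583-56497289 (plus strand). SW1990 negative cells had 2.94, 2.18 and 4.31 RPKM of it and SW1990 positive cells 14.1, 20.9 and 18.5 RPKM. CFPAC-1 showed the reverse, with 44.9, 49.5 and 54.2 RPKM in negative cells and 20.5, 31.0 and 20.1 RPKM in positive cells. No positive sample overlapped the negative samples of its line. The log2 fold change was 2.50 in SW1990 (95% confidence interval 1.99 to 3.02, adjusted p = 9.72e-06, limma) and -1.07 in CFPAC-1 (-1.59 to -0.56, adjusted p = 0.00445). The fall in CFPAC-1 passed 2-fold narrowly, with log2 fold changes of -0.98 without positive CFPAC-1 replicate 1 and -0.97 without positive replicate 3, both under the threshold, and -1.28 without positive replicate 2, the sample with the highest level. The changes in the 2 lines differed by 3.58 (standard error 0.33, adjusted p = 2.33e-05, limma interaction), an 11.9-fold difference and the largest of the 10 genes in either direction.

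**Figure D1:**
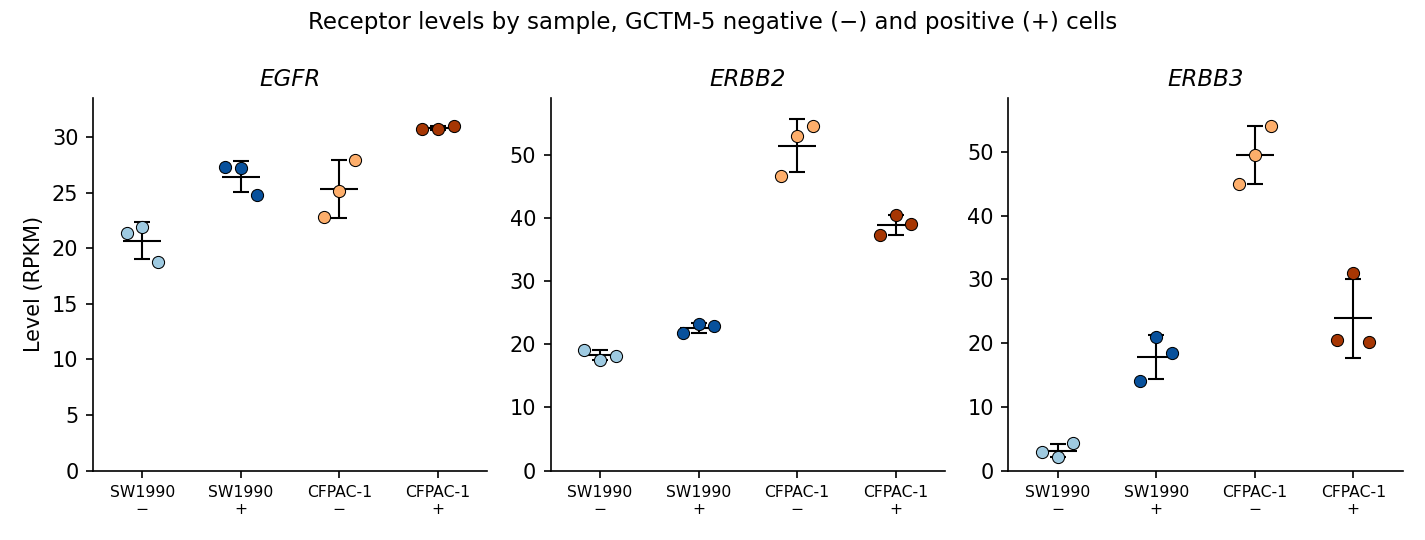
RPKM (vertical axes, linear from 0) of the 3 receptor genes in each of the 12 samples, with the mean and SD of each group of 3. *ERBB3* goes from 2.18 to 4.31 RPKM up to 14.1 to 20.9 RPKM with GCTM-5 in SW1990 and from 44.9 to 54.2 RPKM down to 20.1 to 31.0 RPKM in CFPAC-1, while *EGFR* stays between 18.8 and 31.0 RPKM in all samples.

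RPKM is per length, so the receptor levels are set beside each other here, but reads of overlapping genes may be included. Such genes are *MIEN1* and *PGAP3* at *ERBB2*, and an unnamed protein-coding gene on the same strand at *ERBB3*. *ERBB3* was 0.172 ± 0.0580 of the *ERBB2* level in SW1990 negative cells (SD, n = 3) and 0.786 ± 0.129 in SW1990 positive cells. In CFPAC-1 the ratio was 0.962 ± 0.0282 in negative and 0.610 ± 0.135 in positive cells, and the ratios of positive and negative samples did not overlap in either line. Of the summed RPKM of the 3 receptors, *EGFR* made up 49.2% ± 3.67 in SW1990 negative cells, 39.6% ± 3.12 in SW1990 positive cells, 20.0% ± 0.377 in CFPAC-1 negative cells and 33.0% ± 2.62 in CFPAC-1 positive cells. With 3 samples against 3, an exact permutation test of such ratios cannot give a p below 0.1, and none was run.

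*EREG* encodes epiregulin and lies at chr4:75230862-75254466 (plus strand), in a cluster of EGFR ligand genes on that chromosome with *EPGN*, *AREG* and *BTC*. It was at 22.1, 22.1 and 24.4 RPKM in SW1990 negative cells and at 59.4, 66.9 and 58.8 RPKM in SW1990 positive cells. CFPAC-1 negative cells had 89.3, 86.0 and 82.3 RPKM, and CFPAC-1 positive cells 231, 207 and 164 RPKM. The 4 groups did not overlap at any point in their order, and the lowest CFPAC-1 sample was above the highest SW1990 sample. The log2 fold change with GCTM-5 was 1.43 in SW1990 (95% confidence interval 1.18 to 1.68, adjusted p = 2.71e-06, limma) and 1.21 in CFPAC-1 (0.96 to 1.46, adjusted p = 3.2e-05). *EREG* was the 1 member of 10 called in the same direction in both lines. The difference between its changes was 0.22 (95% confidence interval -0.14 to 0.57, adjusted p = 0.353, limma interaction).

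*TGFA* encodes TGF-alpha and lies at chr2:70674416-70781325 (minus strand). Its level was 53.7, 51.9 and 49.7 RPKM in SW1990 negative and 104, 87.0 and 85.0 RPKM in SW1990 positive cells, without overlap. CFPAC-1 negative cells had 63.4, 61.7 and 60.0 RPKM and positive cells 70.8, 70.6 and 62.6 RPKM, so that 1 positive sample fell among the negative ones. The log2 difference was 0.82 in SW1990 (95% confidence interval 0.63 to 1.02, adjusted p = 3.12e-05, limma), a 1.77-fold difference that was under the fold threshold. In CFPAC-1 it was 0.14 (-0.06 to 0.34, adjusted p = 0.257), and the 2 differences were unequal by 0.69 (adjusted p = 0.00216, limma interaction).

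*HBEGF*, the gene of HB-EGF, a ligand that binds heparin, lies at chr5:139712428-139726188 (minus strand). SW1990 negative cells had 12.8, 8.27 and 8.49 RPKM of it and SW1990 positive cells 21.9, 22.2 and 26.5 RPKM. In CFPAC-1 the level was 25.2, 25.5 and 24.3 RPKM in the negative samples and 35.5, 30.0 and 40.3 RPKM in positive cells. Positive samples were above negative samples throughout in both lines. Its log2 fold change in SW1990 was 1.27 (95% confidence interval 0.92 to 1.62, adjusted p = 8.92e-05, limma), and the log2 difference in CFPAC-1 was 0.48 (0.14 to 0.83, adjusted p = 0.0333), under 2-fold. The change in SW1990 exceeded that in CFPAC-1 by 0.79 (adjusted p = 0.0231, limma interaction). That adjusted p was 0.0570 without negative SW1990 replicate 2, 0.0526 without negative SW1990 replicate 3, 0.0612 without positive SW1990 replicate 3 and 0.0515 without negative CFPAC-1 replicate 2.

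*BTC*, which encodes betacellulin, lies at chr4:75669969-75719733 (minus strand). It was low in SW1990, at 1.80, 1.88 and 1.67 RPKM in the negative samples and 1.79, 3.03 and 2.26 RPKM in positive cells, and these samples overlapped. CFPAC-1 had 1.48, 1.42 and 1.21 RPKM in negative cells and 4.65, 5.03 and 4.62 RPKM in positive cells, with no overlap. Behind these values lay 32 to 68 reads a sample, apart from the CFPAC-1 positive cells with 61 to 161. The log2 fold change in CFPAC-1 was 1.73 (95% confidence interval 1.34 to 2.13, adjusted p = 5.6e-05, limma), the largest rise of a ligand gene there. In SW1990 the log2 difference was 0.36 (-0.04 to 0.75, adjusted p = 0.173), and the change in CFPAC-1 was larger by 1.38 (interaction -1.38, adjusted p = 0.0021, limma).

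*NRG1*, the neuregulin gene and the 1 ligand among the 6 that binds ERBB3, lies at chr8:31496738-32713184 (plus strand). SW1990 negative cells had 5.98, 5.41 and 3.62 RPKM and SW1990 positive cells 3.57, 2.13 and 3.44 RPKM, where the highest positive sample was just below the lowest negative one. CFPAC-1 had little of it, 0.290, 0.176 and 0.277 RPKM in negative cells (30 to 44 reads) and 0.555, 0.602 and 0.992 RPKM in positive cells (77 to 113 reads). The log2 difference in SW1990 was -0.70 (95% confidence interval -1.32 to -0.08, adjusted p = 0.0876, limma) and was not called. The log2 fold change in CFPAC-1 was 1.21 (0.59 to 1.83, adjusted p = 0.00634), and without positive CFPAC-1 replicate 3 it was 0.98, under the fold threshold. With a pseudocount of 1 the same difference was 0.45 for *NRG1*. The changes of the 2 lines differed by -1.91 (standard error 0.40, adjusted p = 0.00436, limma interaction), and by -1.02 with a pseudocount of 1, opposite in sign to the difference for its receptor *ERBB3*. The table has 1 row for *NRG1* and does not separate its isoforms, and several noncoding genes lie within it.

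*AREG*, the gene of amphiregulin, lies at chr4:75310853-75320722 (plus strand) in GRCh37, a build that holds a near-identical copy named *AREGB* at chr4:75480629-75490486. Of the 1135 windows of 100 bases in the longest spliced *AREG* transcript, 1035 (91.2%) occurred without a mismatch in that of the copy, and the sources used here do not say how reads with several matches were counted. The gene length at which the *AREG* values came out as whole reads was 2476 bases, where the longest spliced transcripts of *AREG* and *AREGB* had 1234 and 1239 bases. Its level is therefore uncertain. The SW1990 negative samples had 0, 0 and 0 reads and the SW1990 positive samples 2, 2 and 3 reads, which is at or under the limit of 3 reads that a count of 0 allows, and no fold change is given for SW1990. CFPAC-1 negative cells had 0.373, 0.443 and 0.486 RPKM (18 to 24 reads) and positive cells 0.891 to 1.33 RPKM (22 to 86 reads), all above the negative ones. The log2 fold change in CFPAC-1 was 1.13 (95% confidence interval 0.62 to 1.64, adjusted p = 0.00316, limma). For *AREG* it was 0.98 without positive CFPAC-1 replicate 1 and 0.53 with a pseudocount of 1, both under 2-fold.

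*ERRFI1* encodes MIG6, a cytoplasmic protein that binds the EGFR kinase and inhibits it, and lies at chr1:8064464-8086369 (minus strand). It had the highest level of the 10 genes in SW1990, at 71.8, 62.1 and 82.3 RPKM in the negative samples and 142, 167 and 188 RPKM in positive cells. In CFPAC-1 it was at 138, 119 and 122 RPKM in the negative samples and 154, 152 and 135 RPKM in positive cells. The samples overlapped in CFPAC-1 and were far apart in SW1990. The log2 fold change was 1.20 in SW1990 (95% confidence interval 0.93 to 1.47, adjusted p = 2.06e-05, limma), and the log2 difference in CFPAC-1 was 0.22 (-0.05 to 0.49, adjusted p = 0.192). The change in SW1990 was larger by 0.98 (adjusted p = 0.0018, limma interaction).

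**Figure D2:**
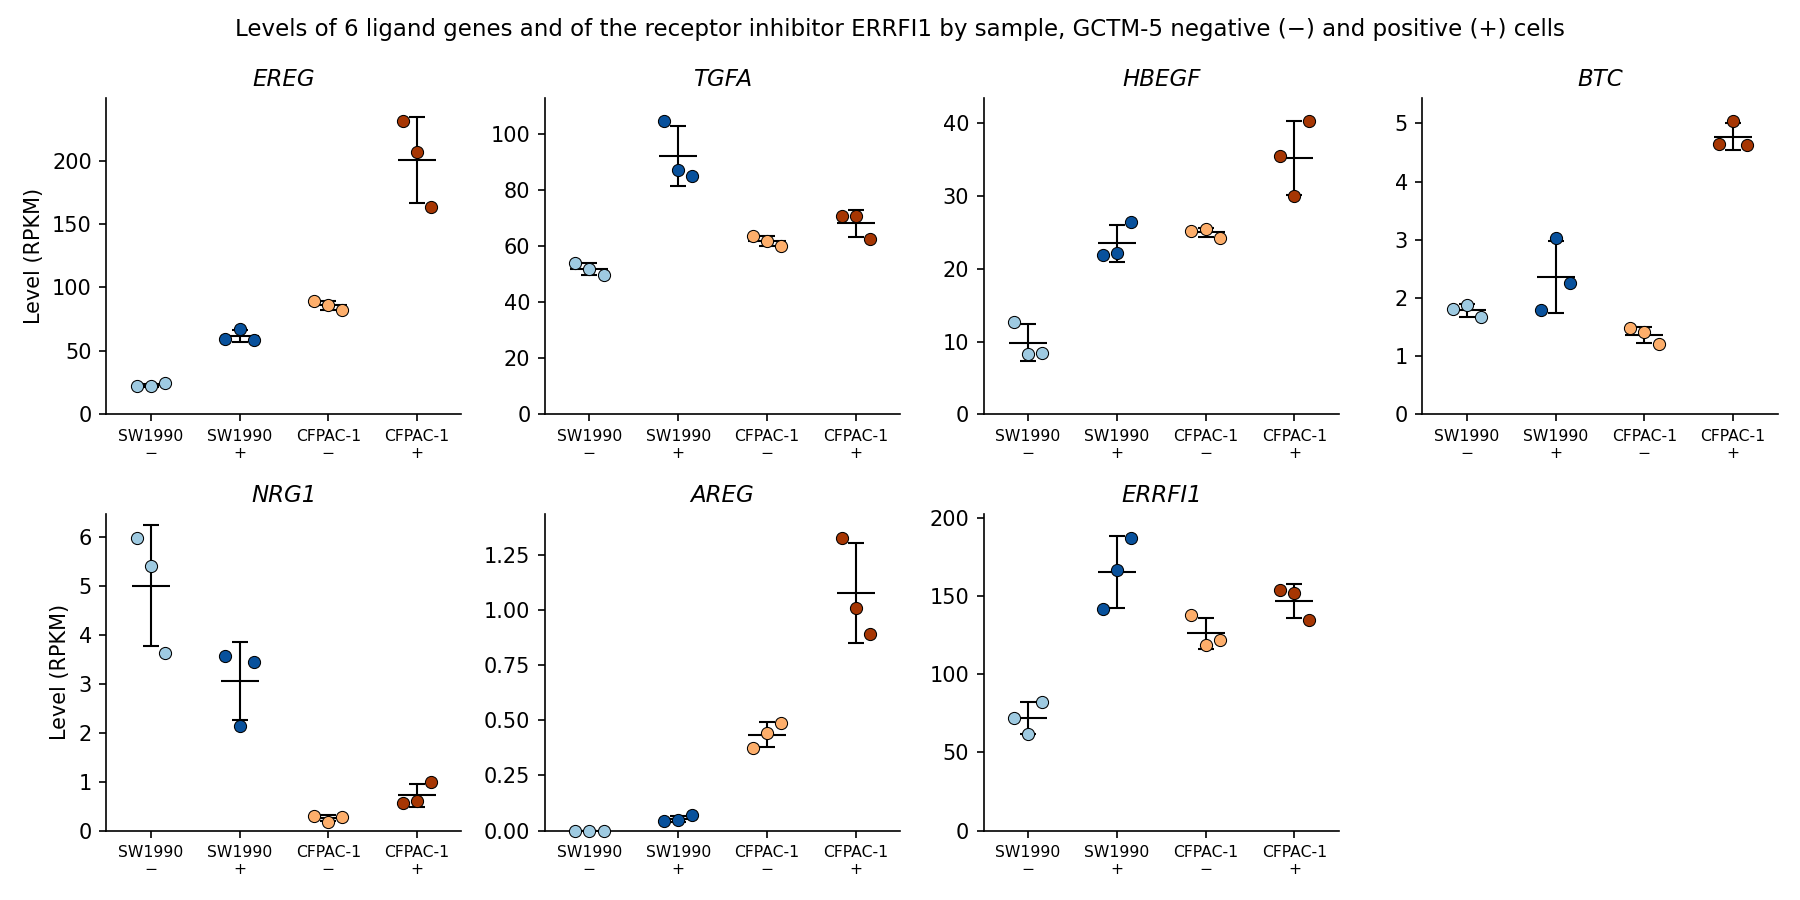
RPKM (vertical axes, linear from 0, a separate scale for each gene) of the 6 ligand genes and *ERRFI1* in each of the 12 samples, with the mean and SD of each group of 3. *EREG* steps up through the 4 groups without overlap from 22.1 to 231 RPKM, *BTC* stands apart in CFPAC-1 positive cells at 4.62 to 5.03 RPKM, and *NRG1* is at 2.13 to 5.98 RPKM in SW1990 and below 1 RPKM in CFPAC-1.

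**Figure D3:**
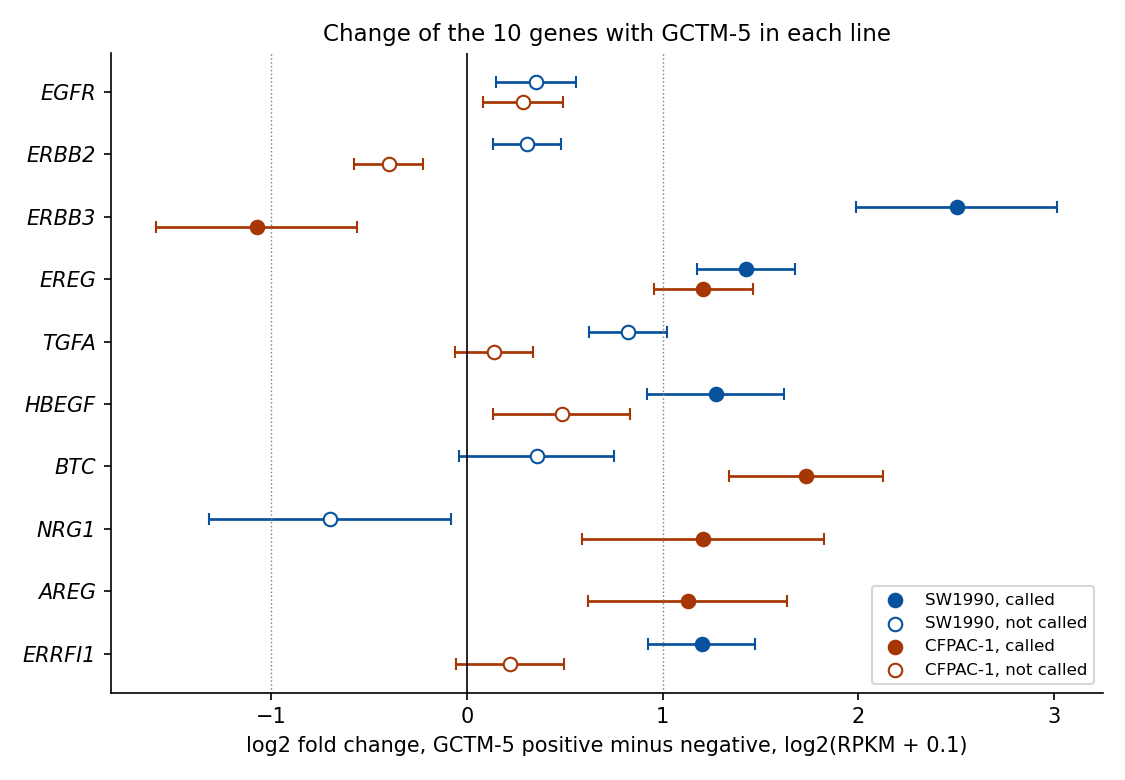
Log2 fold change of the 10 genes between GCTM-5 positive and negative cells (horizontal axis, log2 of RPKM plus 0.1) in SW1990 and CFPAC-1, with 95% confidence intervals. Filled points were called, dotted lines mark 2-fold, and *AREG* in SW1990 is left out because its reads were at or under 3. *ERBB3* has called points on opposite sides of 0, at 2.50 and -1.07, and *EREG* has both on the same side, at 1.43 and 1.21.

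Promoter windows of 5 genes called in at least 1 line are printed here so that the ligand genes that rose with GCTM-5 and *ERRFI1* can be compared by sequence. They come from RefSeq (GRCh38.p14), run from 250 bases before to 50 bases after an annotated start, and are given 5′ to 3′ on the strand of the gene. Of the 10 genes, 8 were in that table, and the windows of *ERBB3* and *NRG1* were not used here. Capitals mark matches on either strand to 5 motifs: the TATA box (TATAAA), the GC box (GGGCGG), an E-box (CAGGTG), the cAMP response element (TGACGTCA) and the AP-1 site (TGANTCA).
EREG, chr4:74364895-74365194, plus strand: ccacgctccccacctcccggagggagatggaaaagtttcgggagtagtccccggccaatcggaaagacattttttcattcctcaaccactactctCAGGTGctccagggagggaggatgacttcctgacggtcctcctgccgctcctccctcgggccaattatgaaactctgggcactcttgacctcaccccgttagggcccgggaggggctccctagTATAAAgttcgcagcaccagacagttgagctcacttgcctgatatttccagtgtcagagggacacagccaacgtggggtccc
AREG, chr4:74444886-74445185, plus strand: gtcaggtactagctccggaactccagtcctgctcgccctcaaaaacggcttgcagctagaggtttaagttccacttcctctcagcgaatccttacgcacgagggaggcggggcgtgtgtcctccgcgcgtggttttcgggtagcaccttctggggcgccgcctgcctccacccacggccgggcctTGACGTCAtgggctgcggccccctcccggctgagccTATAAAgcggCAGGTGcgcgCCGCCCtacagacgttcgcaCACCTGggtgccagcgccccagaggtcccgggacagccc
BTC, chr4:74794474-74794773, minus strand: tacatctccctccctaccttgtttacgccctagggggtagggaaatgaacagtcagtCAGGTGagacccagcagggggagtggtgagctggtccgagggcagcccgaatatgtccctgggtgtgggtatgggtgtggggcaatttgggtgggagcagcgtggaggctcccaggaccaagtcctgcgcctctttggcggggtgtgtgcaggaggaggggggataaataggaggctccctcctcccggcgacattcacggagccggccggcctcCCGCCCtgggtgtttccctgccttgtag
HBEGF, chr5:140346554-140346853, minus strand: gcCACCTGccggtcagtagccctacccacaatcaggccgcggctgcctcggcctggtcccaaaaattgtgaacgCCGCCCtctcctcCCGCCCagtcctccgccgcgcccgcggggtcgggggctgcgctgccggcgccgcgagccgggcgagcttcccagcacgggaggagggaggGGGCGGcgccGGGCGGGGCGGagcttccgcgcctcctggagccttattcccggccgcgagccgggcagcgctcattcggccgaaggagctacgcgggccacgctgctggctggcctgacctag
ERRFI1, chr1:8026260-8026559, minus strand: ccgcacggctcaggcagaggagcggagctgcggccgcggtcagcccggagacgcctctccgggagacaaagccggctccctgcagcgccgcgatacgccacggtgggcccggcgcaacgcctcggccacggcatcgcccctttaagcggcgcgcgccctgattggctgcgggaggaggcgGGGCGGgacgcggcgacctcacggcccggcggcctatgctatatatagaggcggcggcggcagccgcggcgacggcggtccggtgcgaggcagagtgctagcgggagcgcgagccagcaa

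The windows of *EREG* and *AREG* each held a TATA box, beginning 32 and 29 bases before the start, a motif present in 11.5% of the 35116 windows of the same length in the table. *AREG* also held a cAMP response element that began 65 bases before the start, found in 1.85% of all windows. An E-box occurred in the windows of *EREG*, *AREG*, *BTC* and *HBEGF*, against 20.6% of all windows. GC boxes occurred in *AREG*, *BTC*, *HBEGF* and *ERRFI1*, against 45.0% of all windows, and 2 of those in *HBEGF* share a base. The AP-1 letters were in none of the 5 windows and in 7.71% of all windows. *EREG*, the gene called in both lines, and *BTC*, called in CFPAC-1, thus shared the E-box letters only, and these matches are descriptions of the sequence that the expression data do not test.

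Taking the ligands together, their summed level was higher in positive cells of both lines. The sum over the 6 genes was 91.3 ± 4.51 RPKM in SW1990 negative cells (SD, n = 3), 183 ± 7.60 in SW1990 positive cells, 175 ± 5.73 in CFPAC-1 negative cells and 310 ± 35.5 in CFPAC-1 positive cells. The lowest positive sample had 176 RPKM in SW1990 and 273 RPKM in CFPAC-1, above the highest negative samples at 96.4 and 180 RPKM. *TGFA* was the largest part of the sum in SW1990, at 56.8% ± 1.13 in negative and 50.3% ± 3.75 in positive cells. In CFPAC-1 it was *EREG* that led, at 49.2% ± 0.377 in negative and 64.3% ± 3.86 in positive cells. The level of *EREG* relative to *TGFA* was 0.443 ± 0.0426 in SW1990 negative, 0.677 ± 0.101 in SW1990 positive, 1.39 ± 0.0179 in CFPAC-1 negative and 2.94 ± 0.324 in CFPAC-1 positive cells, and no groups overlapped. *NRG1* was 5.45% ± 1.16 of the sum in SW1990 negative cells and at most 1.96% in any sample of the other groups. The sums were not tested, for the reason given for the receptor ratios.

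**Figure D4:**
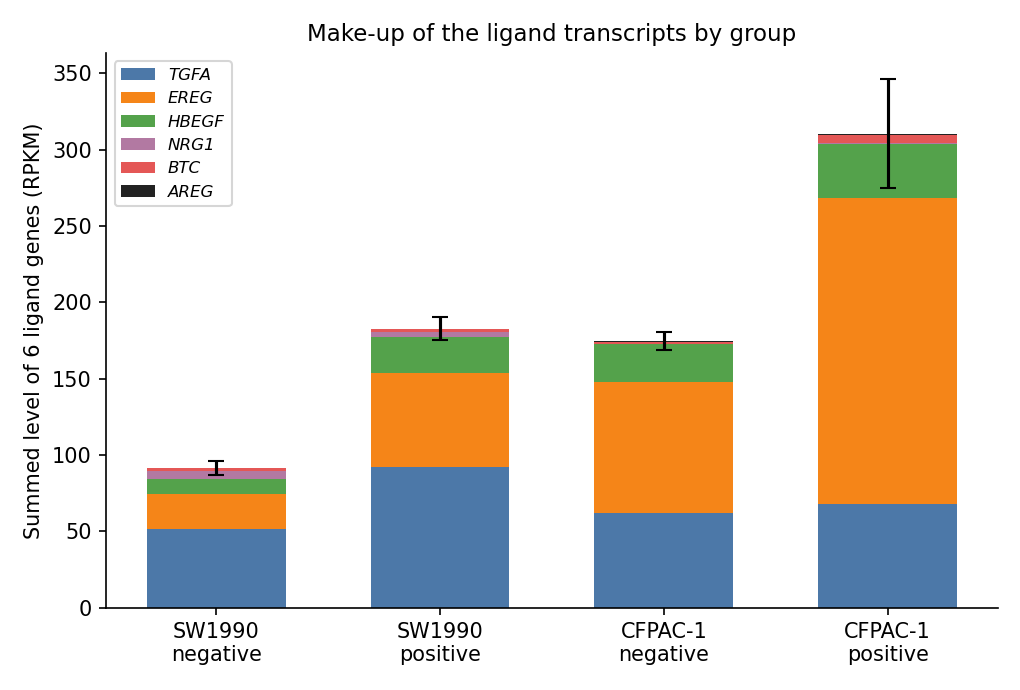
Mean RPKM of 6 ligand genes stacked by group (vertical axis, linear from 0), with the SD of the summed level over 3 samples. The total rises from 91.3 to 183 RPKM with GCTM-5 in SW1990, where *TGFA* is the largest part, and from 175 to 310 RPKM in CFPAC-1, where *EREG* is.

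Between the lines, *NRG1* was higher in SW1990 in both populations, and *ERBB3* was lower in the negative cells, where both gaps were wide. In negative cells, 6 of 10 members were called, with *NRG1* higher in SW1990 and *ERBB2*, *ERBB3*, *EREG*, *HBEGF* and *AREG* lower, against 21.9% of all genes fitted called higher and 15.0% called lower. *AREG*, fitted only because of its level in CFPAC-1, had to be lower in SW1990, and without it 5 of 9 members were called, 1 higher and 4 lower. Relative to CFPAC-1, *NRG1* was 14.5-fold higher (log2 difference 3.86, 95% confidence interval 3.24 to 4.48, adjusted p = 1.76e-07, limma), and *ERBB3* was 15.8-fold lower (log2 difference -3.99, -4.50 to -3.47, adjusted p = 2.92e-08). The *NRG1* difference rests on low values in CFPAC-1 and depended on the pseudocount, with a log2 difference of 2.24 at a pseudocount of 1 and 4.34 with voom on recovered reads. Of the 4 groups, SW1990 negative had the highest mean level of *NRG1* and the lowest of *ERBB3*. *EREG* was lower by 1.90 on the log2 scale (log2 difference -1.90), *ERBB2* had a log2 difference of -1.49 and *HBEGF* one of -1.37, with adjusted p from 9.82e-06 down to 1.34e-08. Against the 3 reads that a count of 0 allows in each library, the mean *AREG* level in CFPAC-1 was 7.26-fold higher. That ratio leaves out the counting error of the CFPAC-1 reads. *ERRFI1* had a log2 difference of -0.81 and was not called; it passed 2-fold narrowly with each sample centred on its median. Over all genes the median log2 difference in this comparison was 0.19, which that centring removed, and the share of called genes that were higher in SW1990 went from 59.4% to 49.5%.

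In positive cells, 4 of 10 members were called between the lines, *NRG1* higher in SW1990 and *EREG*, *BTC* and *AREG* lower, against 14.8% of all genes fitted called higher and 13.7% called lower. Without *AREG* these were 3 of 9, 1 higher and 2 lower. *ERBB3* was not among them, with overlapping samples and a log2 difference of -0.41 (95% confidence interval -0.92 to 0.11, adjusted p = 0.152, limma). For *ERBB2* the log2 difference was -0.78 and for *HBEGF* -0.58, both under 2-fold. *NRG1* had a 3.86-fold difference (log2 difference 1.95, and 1.23 at a pseudocount of 1, adjusted p = 8.15e-05, limma) and *EREG* a 3.22-fold difference in the other direction (adjusted p = 1.42e-07). The lower level of *BTC* in SW1990 (log2 difference -1.01, adjusted p = 0.000395, limma) was -0.84 without positive SW1990 replicate 1 and -0.98 without positive CFPAC-1 replicate 2, under the threshold in both. The same difference was also under the threshold with a pseudocount of 1 (-0.80) and with quantile normalization (-0.98). *AREG* had 155 reads in the CFPAC-1 and 7 in the SW1990 positive libraries, a ratio of 21.8 per library read with an exact 95% interval of 10.3 to 55.2 that covers counting error only. As the gene was fitted only through its level in CFPAC-1, the filter fixed the direction of this ratio, which is not read as a result. The median log2 difference over the members was -1.09 in negative and -0.49 in positive cells, beside 0.19 and 0.06 over all genes, and without *AREG* it was -0.81 and -0.41.

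The change with GCTM-5 differed between the lines, at an adjusted p under 0.05 for the interaction, for 7 of 10 members, of which 5 had the larger value in SW1990 (*ERBB3*, *ERRFI1*, *HBEGF*, *ERBB2* and *TGFA*) and 2 in CFPAC-1 (*BTC* and *NRG1*). Among all genes fitted, 9.16% were called with a larger value in SW1990 and 17.8% in CFPAC-1, a split of 34% to the SW1990 side that became 50% with each sample centred on its median. The median interaction was 0.45 over the members, 0.69 without *AREG* and -0.15 over all genes fitted. Changes of opposite sign were called in both lines for *ERBB3*, and *EGFR*, *EREG* and *AREG* did not reach the threshold for a difference between lines.

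The other members of the family were at low levels. *ERBB4*, the remaining receptor, had 39 to 50 reads in the SW1990 negative samples (0.183 ± 0.00247 RPKM). SW1990 positive samples had 0 to 8 reads of it (0.0247 ± 0.0215 RPKM), without overlap, and the CFPAC-1 samples 2 to 16. *EPGN*, the ligand gene epigen, had 0 to 2 reads in every sample. *NRG2* had 6 to 22 reads in the SW1990 negative samples, 2 in each SW1990 positive sample and 0 to 4 in the CFPAC-1 samples. *EGF* was at 0.0814 ± 0.0372 RPKM in SW1990 negative and 0.353 ± 0.0570 RPKM in CFPAC-1 positive cells. *NRG3* was listed at 0 to 0.0269 RPKM in SW1990 and at 1.71 to 3.07 RPKM in CFPAC-1, above *NRG1* there. *NRG4* was at 0.623 ± 0.0628 RPKM in SW1990 negative and 0.276 ± 0.0987 in SW1990 positive cells, a log2 difference of -0.97 that was not called. Of these 6 genes, 3 were fitted (*EGF*, *NRG3* and *NRG4*), and 0 were called with GCTM-5 in either line by limma. *ERBB4*, *EPGN* and *NRG2* did not reach the filter, so that the lower reads of *ERBB4* and *NRG2* in SW1990 positive cells were not tested. In SW1990, *EGF* had 0 to 12 reads and *NRG3* 0 to 2, so that a change there could hardly be called. At an unadjusted p under 0.05 there was 1 in each line (*NRG4* in SW1990 and *NRG3* in CFPAC-1), and voom on recovered reads called 1 in SW1990 and 0 in CFPAC-1.

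Genes that act around the receptors were examined in 4 lists. Of 8 genes for the release of ligands from the membrane, among them *ADAM17* and *ADAM10*, 7 were fitted and 0 were called in either line by limma or by voom. At an unadjusted p under 0.05, 4 were higher and 1 lower in SW1990, and 0 were higher and 1 lower in CFPAC-1. Of 20 adaptor and core cascade genes, among them *GRB2* and *STAT3*, 0 were called in either line by limma or by voom. At an unadjusted p under 0.05, 4 of them were higher and 8 lower in SW1990, and 8 were higher and 6 lower in CFPAC-1. At an adjusted p under 0.05, 8 of these 20 passed in SW1990 and 10 in CFPAC-1, against 28.2% and 36.5% of all genes. Of the 7 fitted genes for ligand release, 4 passed that rule in SW1990 and 0 in CFPAC-1. Of 18 genes for receptor turnover and feedback, 1 was called higher and 4 lower in SW1990, and 1 higher and 1 lower in CFPAC-1. Across all genes fitted, SW1990 had 4.59% called higher and 7.48% lower, and CFPAC-1 had 5.65% and 4.13%. SW1990 had 10 of the 18 at an adjusted p under 0.05, and CFPAC-1 had 11, against 28.2% and 36.5% of all genes. Most of their log2 differences were negative: SW1990 had 13 of 18 and CFPAC-1 14 of 18. Their medians were -0.21 and -0.32, beside -0.04 and 0.05 over all genes. *CBLB*, a ubiquitin ligase that targets activated receptors, fell in both lines, from 9.35 ± 1.66 to 2.67 ± 0.730 RPKM in SW1990 (log2 fold change -1.79, adjusted p = 0.000295, limma) and from 5.00 ± 0.205 to 2.00 ± 0.786 RPKM in CFPAC-1 (-1.35, adjusted p = 0.00232). *LRIG3*, of a family of transmembrane receptor regulators, fell in SW1990 from 3.78 ± 0.418 to 1.01 ± 0.121 RPKM (log2 fold change -1.81, adjusted p = 1.11e-05) and rose in CFPAC-1 from 1.09 ± 0.0922 to 2.67 ± 0.491 RPKM (1.21, adjusted p = 0.000354). The others called in SW1990, named after their values were seen, were *DUSP5* (1.18), a phosphatase of ERK, *LRIG1* (-1.80), a negative regulator of EGFR family receptors, and *SOCS5* (-1.16).

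Among 12 fitted targets of the ERK pathway, 0 were called higher and 2 lower in SW1990, and 1 was called higher and 0 lower in CFPAC-1. Over all genes fitted, 4.59% were called higher and 7.48% lower in SW1990, and 5.65% and 4.13% in CFPAC-1. At an adjusted p under 0.05, 7 of the 12 passed in each line, against 28.2% and 36.5% of all genes. Directions were mixed, with 7 log2 differences positive and 5 negative in SW1990, and 4 and 8 in CFPAC-1. *IL8*, a neutrophil chemokine gene now named *CXCL8*, fell in SW1990 from 92.7 ± 18.3 to 17.8 ± 7.44 RPKM (log2 fold change -2.43, adjusted p = 2.74e-05, limma) and rose in CFPAC-1 from 21.2 ± 4.18 to 77.5 ± 15.0 RPKM (1.87, adjusted p = 0.000318). *ETV5*, an ETS factor named after its values were seen, fell in SW1990 from 44.1 ± 1.59 to 17.0 ± 2.01 RPKM (-1.38, adjusted p = 2.3e-06). The median log2 fold change of the ERK target list was 0.07 in SW1990 and -0.17 in CFPAC-1, beside -0.04 and 0.05 over all genes.

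Markers of epithelial and mesenchymal state moved with the sort in SW1990, and the change differed between the lines (limma interaction, adjusted p under 0.05) for 5 of 6 epithelial and 4 of 6 mesenchymal markers. The 5 had the larger value in SW1990 and the 4 in CFPAC-1, against 9.16% and 17.8% of all genes fitted. Within the lines, 4.59% of all genes were called higher and 7.48% lower in SW1990, and 5.65% and 4.13% in CFPAC-1. The summed RPKM of 6 epithelial duct markers was 1595 to 1942 in SW1990 negative and 4360 to 4841 in SW1990 positive cells, with 5 of 6 called higher, and 5411 to 6173 in CFPAC-1 negative and 6676 to 8162 in CFPAC-1 positive cells, with 0 of 6 called by limma or by voom but 3 of 6 higher and 0 lower at an unadjusted p under 0.05. For 6 mesenchymal markers it was 1304 to 1479 in SW1990 negative and 219 to 404 in SW1990 positive cells, with 5 of 6 called lower, and 558 to 760 in CFPAC-1 negative and 428 to 600 in CFPAC-1 positive cells, with 2 of 6 called lower. *ERBB3* moved in the direction of the epithelial markers in SW1990. In CFPAC-1 *ERBB3* fell, while the keratin genes *KRT7* (log2 difference 0.86, adjusted p = 0.00566, limma), *KRT18* (0.70, adjusted p = 0.00103) and *KRT8* (0.70, adjusted p = 0.00649) were higher in positive cells by less than 2-fold. The other 3 epithelial markers there had log2 differences of 0.31 (*CDH1*), -0.08 (*EPCAM*) and -0.14 (*KRT19*), with adjusted p from 0.115 to 0.729. The part of these states in the changes of the members was not tested. In sorted bulk samples, fewer cells that express a gene and less RNA per cell cannot be told apart.

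Markers of other cell types were uneven, with some at 0 and others well above it. Of 7 fibroblast and stellate markers, *COL3A1* and *DCN* were at 0 in all samples of 3 groups, whereas *LUM* was at 13.2 ± 5.28 and *PDGFRB* at 1.76 ± 0.266 RPKM in SW1990 negative cells, both of which fell with GCTM-5 there. The list summed to 14.1 to 24.8 RPKM in SW1990 negative cells and 2.83 to 6.39 RPKM in the other groups. The sum of 4 endothelial markers was 14.8 to 18.8 RPKM in SW1990 negative cells, of which *CDH5* was 15.6 ± 1.82 RPKM, and 0.751 to 2.05 RPKM elsewhere. *PECAM1* and *VWF* were also highest in SW1990 negative cells, at 0.717 ± 0.211 and 0.202 ± 0.0468 RPKM. *KDR* went the other way, at 0 there and at 0.878 ± 0.124 and 0.637 ± 0.0261 RPKM in CFPAC-1 negative and positive cells. For 6 leukocyte markers it was 16.3 to 50.02 RPKM in SW1990 and 163 to 228 RPKM in CFPAC-1. In CFPAC-1 negative and positive cells, *CD68* was at 120 ± 8.97 and 138 ± 27.2 RPKM, *LYZ* at 64.1 ± 18.6 and 56.6 ± 5.09 and *CD14* at 9.23 ± 0.535 and 3.19 ± 0.966, while *PTPRC* was at 0 in all samples of CFPAC-1 negative and *CD3E* in all of SW1990. The 3 haemoglobin genes and the 6 acinar and endocrine genes summed to at most 0.179 and 0.295 RPKM. The SW1990 negative group had the highest *NRG1* and lowest *ERBB3*, and also the highest sums of the fibroblast and endothelial lists. The endothelial sum there was mostly *CDH5*. The part of these marker genes in the levels of *NRG1* and *ERBB3* was not tested.

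The genes most like a member over the 12 samples were found by the distance between log2 values centred on each gene's mean, among genes with a mean of at least 1 RPKM. Nearest to *ERBB3* were *TMC4* (distance 0.99), *FAM110C* (1.13) and *OCLN* (1.17), the last of which encodes occludin of tight junctions. *TMC4* was at 0.811, 6.09, 13.0 and 6.20 RPKM on average in SW1990 negative, SW1990 positive, CFPAC-1 negative and CFPAC-1 positive cells, in the order of *ERBB3*. Nearest to *EREG* were *OXTR*, the oxytocin receptor gene (0.81), *ALPK3* (0.86) and *HCG4* (1.00), and to *EGFR* were *ALDH9A1* (0.31), *SLC25A5* (0.32) and *EI24* (0.34). The distances to *EGFR* are short because genes that vary little are near each other. For *AREG* they were *DEPDC1B*, *LOC399815* and *FRRS1*, which rest on its few reads.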

How the data were processed

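RNA of 12 sorted samples was sequenced and, according to the paper, reads were aligned to hg19 (GRCh37). The authors made the deposited RPKM values with QuasR, dividing read counts by library size and gene length, and the annotation, strand setting and treatment of reads with several matches are not given in the sources used here. The paper and the labels name different library kits, media and secondary antibodies. All 12 columns of values were used (0 were not). Groups followed the labelled line and GCTM-5 status.

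The log2 of RPKM plus 0.1 was fitted with limma 3.58.1 in R 4.3.3 (4 group means, empirical Bayes with a trend) for genes whose mean was 0.1 RPKM or more. A call needed over 2-fold and an unadjusted p under 0.01, and the interaction an adjusted p under 0.05. The intervals are 95% confidence intervals. Library totals and reads were recovered from the values, since single-exon lengths are known from GENCODE 44 lifted to GRCh37, and intervals on reads cover counting error only. The scripts were tested on simulated data.

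The members and lists were chosen with earlier results of these data known. Named are all 10 members, the other family genes, the genes of the 4 pathway lists called in both lines or over 4-fold in 1 line, and the 3 genes nearest to *EGFR*, *ERBB3*, *AREG* and *EREG*. Marker genes and further names in counts of 5 or fewer were chosen after their values were seen. Alternatives were pseudocounts of 1 and 0.01, other filters, centring, quantile normalization, a replicate block, no trend, another call rule, leaving out each sample and, chosen after seeing the data, voom on the recovered reads. Same-numbered samples of a line are not stated to be paired.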

Additional observations from a re-analysis of the deposited data

Results flagged for a closer look

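For 7 of the 10 genes, the change with GCTM-5 differed between SW1990 and CFPAC-1 by the interaction test in limma (adjusted p under 0.05), and these are singled out for that reason. The difference, SW1990 change minus CFPAC-1 change on the log2 scale, was 3.58 for *ERBB3* (adjusted p = 2.33e-05), which rose in 1 line and fell in the other. It was -1.91 for *NRG1* (adjusted p = 0.00436), where the values of the 2 lines also had opposite signs but the lower level of positive cells in SW1990 was not called. *BTC* had a difference of -1.38 (adjusted p = 0.0021), with a rise called in CFPAC-1 only. For *ERRFI1* the difference was 0.98 (adjusted p = 0.0018) and for *HBEGF* 0.79 (adjusted p = 0.0231), both with a rise called in SW1990 only. *ERBB2* differed by 0.71 (adjusted p = 0.000874) and *TGFA* by 0.69 (adjusted p = 0.00216), neither of which was called within a line. Groups of 3 were too small to look for single outlying samples.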

How the results depend on the processing

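Of the 10 genes, the number called with GCTM-5 was 4 in SW1990, 5 with a pseudocount of 0.01 or voom, both of which added *AREG*, and 7 under the rule of an adjusted p under 0.05 without a fold threshold, which 28.2% of all genes passed. In CFPAC-1 it was 5, and 8 under that rule (36.5% of all genes), 3 with a pseudocount of 1, and 3 to 5 when each sample was left out, the 3 being without positive CFPAC-1 replicate 1 or replicate 3. Between lines in positive cells it was 4, and 7 under that rule (62.3% of all genes) and 2 with a pseudocount of 1. The number was 6 between lines in negative cells (5 to 9, the 9 under that rule, which 68.9% of all genes passed) and 7 for the interaction (6 to 8), each within 1.5 times in every setting. The interaction of *EGFR* was 0.07 and ran from -0.0084 to 0.14 when samples were left out, turning sign without negative SW1990 replicate 3 and without negative CFPAC-1 replicate 3. That of *AREG* was -0.52 but 1.34 with a pseudocount of 0.01 and 1.32 with voom, since its SW1990 values lie at 0 to 3 reads. With a pseudocount of 1 it was -0.46 and passed the threshold (adjusted p = 0.0127, limma interaction). A filter at a mean RPKM of 1 removed *AREG*.

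As a check on pairing, the log2 values of each sample were taken as deviations from the mean of its group. Between same-numbered negative and positive samples, these deviations correlated over genes at 0.18, 0.02 and 0.12 in SW1990. In CFPAC-1 the correlations were -0.02, 0.00 and -0.06, and they were not all above 0.1 in either line. With a replicate block within each line, 4 of 10 genes were called in SW1990, 5 in CFPAC-1 and 7 for the interaction, the numbers found without it. No block could be fitted between lines, whose numbers are unrelated. Low read numbers limit *AREG*, *NRG1* in CFPAC-1 and *BTC* most.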
